A study of Homo sapiens with 9 samples.

Results

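The genes of triglyceride synthesis examined here are 10 named rows of a table of 60683 human genes, chosen by symbol. They are the glycerol-3-phosphate acyltransferases GPAM, GPAT3 and GPAT4, the lysophosphatidic acid acyltransferase AGPAT2, the phosphatidate phosphatases LPIN1, LPIN2 and LPIN3, the diacylglycerol acyltransferases DGAT1 and DGAT2, and MTTP, the microsomal lipid transfer protein. The list was proposed with the effect of low oxygen on these genes already known, the decrease of GPAM included, so the values at 1% against 20% O2 are given as a description, with no test. RNA was sequenced from Hep3B, an established human liver cancer line, in 3 groups of 3 cultures, each treated for 24 hours. The groups were DMSO vehicle at 20% O2, DMSO vehicle at 1% O2, and 32-134D at 1% O2, where 32-134D is a small molecule made to inhibit the hypoxia-inducible factors (HIFs). No library held 32-134D at 20% O2, and the compound was used at a single concentration, which the study's results text states and the labels do not. All groups are the same unmodified line, and liver cells in an animal were not measured.

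Triglyceride is built on glycerol-3-phosphate. An acyltransferase adds the first fatty acid, an AGPAT enzyme adds the second to make phosphatidic acid, a lipin removes the phosphate to leave diacylglycerol, and a DGAT enzyme adds the last fatty acid. Hepatocytes store the product in droplets or load it with MTTP onto apolipoprotein B for secretion as very low density lipoprotein, while phosphatidic acid and diacylglycerol can also leave the route towards phospholipids.

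The libraries held 6013980 to 40549699 counts, and a level below is CPM, a count scaled to a common library total, with TMM factors. A gene was called higher or lower at a false discovery rate (FDR) below 0.05 in edgeR's quasi-likelihood test over 22672 genes together with a fold above 1.5. All 10 genes passed the filter on low counts. The labels describe the 3 cultures of a group as biological replicates, and the p-values measure only the spread between these cultures. The third 32-134D library stood apart from the other two. Its counts differed from theirs more than sampling noise allows (chi-square divided by its degrees of freedom 36.2 and 40.5, where the other replicate pairs had 1.64 to 13.3), and 3.27% of the 13911 genes with a mean of at least 1 CPM lay over 2-fold from the mean of replicates 1 and 2. In it 7 of 9 hepatocyte markers were lower than in the other 32-134D libraries. The summed CPM of the 9 markers was 11250 there, against 16630 in the highest 32-134D library. It was 16730 to 18050 at 20% O2 and 11680 to 14530 in vehicle at 1% O2. In vehicle at 1% O2 APOB was 377.5 to 423.3 CPM, against 3256 to 5256 CPM at 20% O2, and ALB was 8287 to 10210 CPM. ALB was 5948 CPM in the third 32-134D library, against 9338 and 9061 CPM in the others. The summed CPM of 6 markers of other cell types was 56.1 in that library and 24.0 to 33.8 in the rest, with leukocyte PTPRC, endothelial VWF and fibroblast COL3A1 at 3 counts or fewer in every library. The other 3 markers were higher in that library than in the other 32-134D libraries, with cholangiocyte KRT7 at 44.5 CPM against 25.3 and 24.6, fibroblast COL1A1 at 10.4 CPM against 5.36 and 5.42, and endothelial PECAM1 at 1.28 CPM against 0.794 and 0.505. The part of this in the results was not tested, and for some of the genes named, differences with 32-134D are given without that library as well. Every library came from the same line, and KRT7 was at 19.5 CPM or more in all of them. Transcripts of these markers therefore do not show that cells of another type were present. In bulk RNA, fewer cells with a transcript and less of it per cell cannot be told apart.

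GPAM stood out from the other members by the size of its difference, and the sequence before its start is shown for that reason, beside those of GPAT3, LPIN1 and MTTP, the other members past the call rule both for vehicle at 1% against 20% O2 and for 32-134D against vehicle at 1% O2. Each stretch is the longest run without an annotated exon in the 250 bases before a RefSeq start (GRCh38.p14), read 5′ to 3′ on the gene's strand. The GPAM stretch is chr10:112183766-112184015 on the minus strand, within an intron of longer GPAM transcripts. The GPAT3 stretch is chr4:83535857-83535913, plus strand, directly before the gene. The LPIN1 stretch is chr2:11677294-11677543, plus strand, upstream of the gene. The MTTP stretch is chr4:99574574-99574706, plus strand, within an intron of the longer transcripts. Capitals mark the 5-letter hypoxia-response element cores ACGTG and GCGTG, on either strand, so that CACGC is GCGTG on the opposite strand.
GPAM: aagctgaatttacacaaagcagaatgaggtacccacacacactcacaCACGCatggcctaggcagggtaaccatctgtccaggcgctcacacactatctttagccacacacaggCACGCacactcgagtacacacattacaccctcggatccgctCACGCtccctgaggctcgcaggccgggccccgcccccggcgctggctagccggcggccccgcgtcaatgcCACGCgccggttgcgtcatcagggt
GPAT3: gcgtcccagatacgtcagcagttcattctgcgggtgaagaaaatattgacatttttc
LPIN1: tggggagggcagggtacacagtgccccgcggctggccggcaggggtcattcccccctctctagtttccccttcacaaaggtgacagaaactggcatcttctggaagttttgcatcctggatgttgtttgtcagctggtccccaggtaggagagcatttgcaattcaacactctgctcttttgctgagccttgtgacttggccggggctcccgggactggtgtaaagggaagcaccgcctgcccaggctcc
MTTP: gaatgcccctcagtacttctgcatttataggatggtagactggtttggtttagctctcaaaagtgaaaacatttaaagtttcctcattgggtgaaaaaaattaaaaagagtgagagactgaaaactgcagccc

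The GPAM window held 4 GCGTG matches, all on the opposite strand, beginning 203, 136, 95 and 25 bases before the start. Of 35116 RefSeq windows of 250 bases, 32.2% held at least 1 GCGTG, 43.2% held ACGTG or GCGTG, and 1.12% held 4 or more GCGTG. The cut of 4 was taken from the GPAM window itself, and GPAM was picked for its large difference. The 1.12% is thus a description and tests nothing. Windows were at hand for 6 of the 10 genes, 11 windows in all. Of these 11 windows, 5 held ACGTG or GCGTG, to be set beside the 43.2% of all windows. Counted by gene, with up to 3 windows each, 5 of the 6 had a core in at least 1 window, which that share does not match. AGPAT2 had 2 GCGTG matches, 1 of 3 LPIN1 windows had 1, 1 of 2 MTTP windows had 1, and an LPIN2 window had an ACGTG on each strand within the E-box CACGTG, a motif found in 6.34% of windows. Neither GPAT3 window had a core. The sterol regulatory element TCACNCCAC, found in 0.883% of windows, had no match in any of the 11. CCAAT, the NF-Y box, stood in the second MTTP window and in 32% of all windows. A match is a run of letters and not a bound site.

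At 1% O2 in vehicle, 2 of the 10 genes were past the thresholds of the call rule upwards (GPAT3 and LPIN1) and 3 downwards (GPAM, LPIN3 and MTTP), where 19.5% and 20.3% of all genes tested were called in those directions. As the genes were proposed with these differences known, those counts describe the list and test nothing. The vehicle groups did not overlap for any of the 10, with 4 higher at 1% O2 (32.3% of all genes) and 6 lower (28.1% of all genes). With 32-134D at 1% O2, GPAM and MTTP rose and GPAT3 and LPIN1 fell against vehicle at 1% O2, which is 2 of 10 in each direction where 16.2% of all genes rose and 13.7% fell. Between 32-134D at 1% O2 and vehicle at 20% O2, GPAT3 was higher and no member was called lower, where the shares of all genes were 3% and 0.516%. Without regard to the call rule, the values of 6 of the 10 genes (GPAM, AGPAT2, LPIN2, LPIN3, DGAT1 and MTTP) lay below those at 20% O2 with no overlap, where 12.8% of all genes did, and 1 (GPAT3) lay above, where 17% did. The groups' values did not overlap for 7 of the 10 genes with 32-134D against vehicle at 1% O2, 4 higher (25.4% of all genes) and 3 lower (30.8% of all genes). The median log2 fold change of the 10 genes was -0.29 for vehicle at 1% against 20% O2, 0.10 for 32-134D against vehicle at 1% O2 and -0.17 for 32-134D against vehicle at 20% O2, and the medians over all genes were 0.00100, -0.0116 and -0.00282. The 3 comparisons share libraries, and the last differs in both oxygen and compound. Both comparisons with 32-134D reuse vehicle libraries from which the low-oxygen differences were already known. Their FDRs for the 10 genes are therefore not independent of the choice of these genes.

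**Figure D1:**
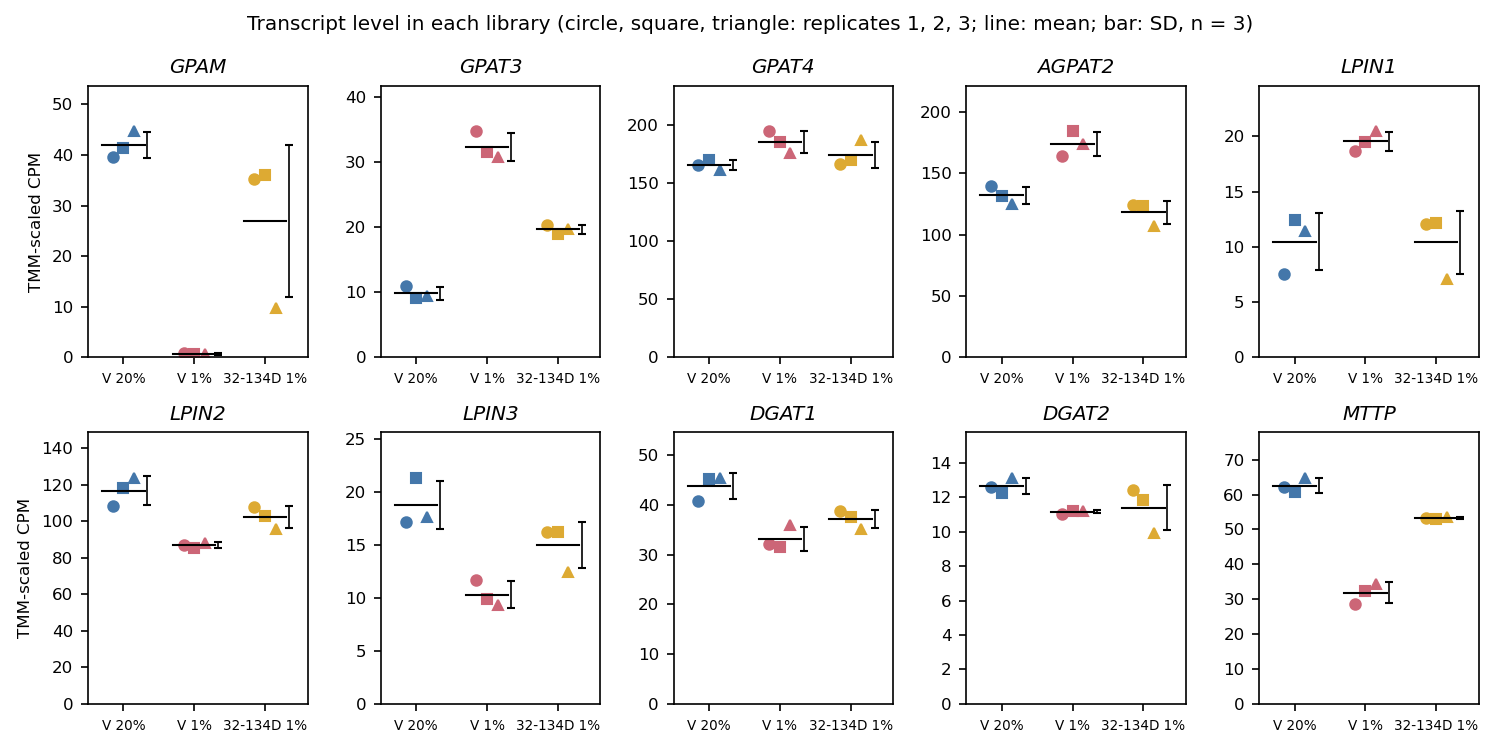
TMM-scaled CPM of each of the 10 genes (linear axis from 0, a separate scale for each gene) in vehicle at 20% O2 (V 20%), vehicle at 1% O2 (V 1%) and 32-134D at 1% O2, with a symbol for each replicate, a line for the mean and a bar for the SD (n = 3). GPAM lies between 0.613 and 0.954 CPM in vehicle at 1% O2, and the third 32-134D library (triangle, 9.70 CPM) lies below the other two, while MTTP in the 3 32-134D libraries spans only 53.1 to 53.5 CPM.

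GPAM (ENSG00000119927, chr10:112149864-112215377, minus strand) encodes the mitochondrial acyltransferase of the first step. It measured 39.6, 41.5 and 44.7 CPM in vehicle at 20% O2 and 0.954, 0.613 and 0.691 CPM in vehicle at 1% O2. With 32-134D at 1% O2 it measured 35.3, 36.0 and 9.70 CPM. All 3 treated libraries lay above all vehicle libraries at 1% O2 and below all those at 20% O2, and the third was 3.54-fold below the mean of the other two. The means were 41.9 ± 2.58, 0.753 ± 0.179 and 26.98 ± 14.97 CPM (SD, n = 3), the middle one resting on 36, 13 and 20 counts. The level at 1% O2 was 53.6-fold below that at 20% O2 (log2 fold change -5.74, SE 0.44). GPAM rose 34.8-fold with 32-134D (log2 fold change 5.12, SE 0.44, edgeR FDR = 3.37e-07), and by 5.50 (SE 0.14, edgeR FDR = 3.19e-22) without the third treated library. Against vehicle at 20% O2 the treated level differed by -0.63 on the log2 scale (interval of 2 SE, -1.25 to -0.0041, edgeR FDR = 0.235), and by -0.24 without that library (edgeR FDR = 0.0828).

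GPAT3 (ENSG00000138678, chr4:83535914-83605875, plus strand), an acyltransferase of the endoplasmic reticulum, ran the other way. It measured 11.04, 9.11 and 9.46 CPM at 20% O2, 34.8, 31.5 and 30.8 CPM in vehicle at 1% O2, and 20.5, 19.1 and 19.7 CPM with 32-134D. The 3 groups were fully separate, with the treated libraries in the middle. Vehicle at 1% O2 was 3.27-fold above 20% O2 (log2 fold change 1.71, SE 0.10), and GPAT3 fell by 0.72 on the log2 scale with 32-134D (SE 0.09, edgeR FDR = 1.93e-05). It was still 1.99-fold higher than in vehicle at 20% O2 (log2 fold change 0.99, SE 0.11, edgeR FDR = 2.9e-05), and it was the only one of the 10 genes called in that comparison. With scaling by total counts, which set the median of all genes at 0.17 for 32-134D against vehicle, the decrease was -0.53 and under the fold threshold.

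GPAT4 (ENSG00000158669, chr8:41577187-41625001, plus strand), the other acyltransferase of the endoplasmic reticulum, had the highest level of the 3 enzymes. Its means were 165.5 ± 4.45 CPM at 20% O2, 185.2 ± 9.31 CPM in vehicle at 1% O2 and 174.1 ± 11.1 CPM with 32-134D (SD, n = 3). The treated libraries, at 166.0, 169.5 and 186.8 CPM, overlapped both vehicle groups. The difference from vehicle at 1% O2 was -0.09 (interval of 2 SE, -0.23 to 0.05, edgeR FDR = 0.324).

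Counts per kilobase of merged exon length put the 3 acyltransferases on a common scale. GPAM supplied 14.4%, 14.96% and 16.5% of their summed level at 20% O2 and 0.281%, 0.192% and 0.227% in vehicle at 1% O2. With 32-134D its share was 11.8%, 12.0% and 3.27%. No treated library overlapped a vehicle library at 1% O2 (means 9.04% ± 5.00 and 0.233% ± 0.0447, SD, n = 3, exact permutation test, two-sided p = 0.1, the smallest that 3 against 3 allows), and the treated mean was 11.9% without the third library. GPAT3 supplied 10.2% ± 1.05, 28.5% ± 0.499 and 18.7% ± 0.696 in the same order of groups, and GPAT4 supplied 74.5% ± 1.10, 71.3% ± 0.543 and 72.2% ± 4.96 (SD, n = 3). The summed level of the 3 genes was 28.0 ± 0.361 CPM per kb at 20% O2, 32.8 ± 1.77 in vehicle at 1% O2 and 30.4 ± 0.159 with 32-134D (SD, n = 3). The sum at 1% O2 was thus no lower than at 20% O2, while GPAT3 took up a larger part of it and GPAM a smaller part.

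**Figure D2:**
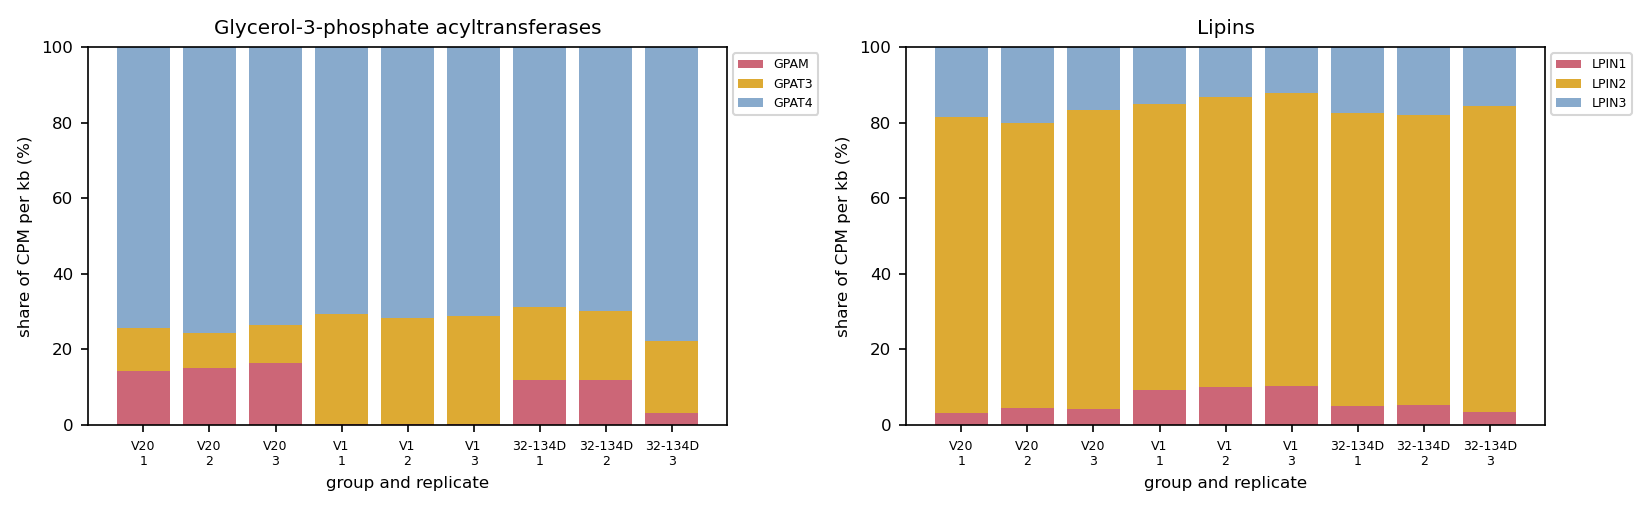
Share of summed CPM per kilobase (%) from each glycerol-3-phosphate acyltransferase (left) and each lipin (right), stacked to 100% in every library of vehicle at 20% O2 (V20), vehicle at 1% O2 (V1) and 32-134D at 1% O2. GPAM is 0.192% to 0.281% of the left bars at 1% O2 in vehicle, and LPIN1 is 9.30% to 10.3% of the right bars there against 3.12% to 5.19% in the other 6 libraries.

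AGPAT2 (ENSG00000169692, chr9:136673143-136687423, minus strand) makes phosphatidic acid, and its loss causes generalized lipodystrophy. It measured 139.2, 131.4 and 125.1 CPM at 20% O2, 164.3, 184.2 and 173.7 CPM in vehicle at 1% O2 and 124.3, 123.0 and 107.3 CPM with 32-134D. The vehicle libraries at 1% O2 were the highest 3 of the 9 and the treated libraries the lowest 3. The log2 fold change of vehicle at 1% against 20% O2 was 0.40 (SE 0.08). With 32-134D it was -0.56 (SE 0.08, edgeR FDR = 3.45e-05), which is under the 1.5-fold threshold. Without the first vehicle library at 1% O2 it was -0.60 and past it, and without the third treated library it was -0.49.

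The lipins, which dephosphorylate phosphatidic acid, did not move as a group. LPIN1 (ENSG00000134324, chr2:11677595-11827409, plus strand), whose protein also acts as a transcriptional coactivator, measured 7.53, 12.4 and 11.4 CPM at 20% O2. In vehicle at 1% O2 it measured 18.7, 19.5 and 20.5 CPM, and with 32-134D 12.0, 12.1 and 7.13 CPM. The vehicle libraries at 1% O2 lay above the other 6, which overlapped each other. The log2 fold change at 1% O2 was 0.92 (SE 0.19). LPIN1 fell by 0.89 on the log2 scale with 32-134D (SE 0.18, edgeR FDR = 0.000945) and by 0.69 without the third treated library (edgeR FDR = 1.51e-05). The treated level differed from vehicle at 20% O2 by 0.02 (interval of 2 SE, -0.37 to 0.42, edgeR FDR = 0.969).

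LPIN3 (ENSG00000132793, chr20:41340920-41360582, plus strand) measured 17.2, 21.4 and 17.7 CPM at 20% O2, 11.7, 9.90 and 9.37 CPM in vehicle at 1% O2 and 16.2, 16.2 and 12.5 CPM with 32-134D. The vehicle libraries at 1% O2 were the lowest 3. Its log2 fold change was -0.84 (SE 0.14) at 1% O2 and 0.54 with 32-134D (SE 0.13, edgeR FDR = 0.00378), the latter under the 1.5-fold threshold. Without the third treated library it was 0.64 (edgeR FDR = 1.39e-05) and past the threshold, and so it was in DESeq2, at 0.60. Its exons overlap 617 bases of EMILIN3 on the opposite strand, which had 248 counts over the 9 libraries against 3207 for LPIN3.

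LPIN2 (ENSG00000101577, chr18:2916994-3013315, minus strand), the most abundant lipin, measured 108.4, 118.2 and 123.8 CPM at 20% O2, 87.1, 85.3 and 88.3 CPM in vehicle at 1% O2 and 108.0, 102.7 and 95.9 CPM with 32-134D. Vehicle at 1% O2 was the lowest group, and the treated group lay between the others. The log2 fold changes were -0.43 (SE 0.07) at 1% O2 and 0.23 with 32-134D (SE 0.07, edgeR FDR = 0.0163), both under 1.5-fold.

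On the scale of CPM per kilobase, LPIN1 made up 3.94% ± 0.733 of the 3 lipins at 20% O2, 9.88% ± 0.520 in vehicle at 1% O2 and 4.53% ± 0.947 with 32-134D (SD, n = 3). The fall with 32-134D, -5.34 percentage points, depends on the length used, and was -9.03 points with longest-transcript lengths and -8.65 points with raw counts. The treated libraries were all below the vehicle libraries at 1% O2, with an exact permutation test, two-sided, at p = 0.1, again the smallest possible. LPIN3 made up 18.5% ± 1.72, 13.5% ± 1.47 and 17.0% ± 1.23 in the same groups, without overlap between vehicle at 1% O2 and 32-134D. LPIN2 held 76.6% to 78.4% in all 3 group means. The summed lipin level was 22.2 ± 1.58 CPM per kb at 20% O2, 16.7 ± 0.301 in vehicle at 1% O2 and 19.2 ± 1.56 with 32-134D (SD, n = 3).

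DGAT1 (ENSG00000185000, chr8:144314584-144326910, minus strand) and DGAT2 (ENSG00000062282, chr11:75759512-75801535, plus strand), unrelated proteins that both add the last fatty acid, had small differences. DGAT1 measured 40.8, 45.2 and 45.5 CPM at 20% O2, 32.1, 31.5 and 36.0 CPM in vehicle at 1% O2 and 38.9, 37.5 and 35.3 CPM with 32-134D. DGAT2 measured 12.6, 12.3 and 13.1 CPM, then 11.1, 11.2 and 11.2 CPM, then 12.5, 11.9 and 9.92 CPM. For both genes the vehicle libraries at 1% O2 lay below those at 20% O2, and the treated libraries overlapped them. With 32-134D the log2 fold change of DGAT1 was 0.17 (interval of 2 SE, -0.0029 to 0.33, edgeR FDR = 0.124) and that of DGAT2 was 0.04 (interval, -0.19 to 0.26, edgeR FDR = 0.821). The log2 ratio of DGAT2 to DGAT1 per kilobase was -2.73 ± 0.0958, -2.51 ± 0.0981 and -2.65 ± 0.102 in the 3 groups (SD, n = 3), and it did not separate 32-134D from vehicle at 1% O2 (exact permutation test, two-sided p = 0.3). DGAT1 shares 630 exon bases with HSF1 on the opposite strand, and since no strand setting of the counting is stated, reads there cannot be told apart.

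MTTP (ENSG00000138823, chr4:99563761-99623999, plus strand) had the steadiest treated values. It measured 62.2, 60.6 and 64.8 CPM at 20% O2, 28.7, 32.4 and 34.5 CPM in vehicle at 1% O2 and 53.3, 53.1 and 53.5 CPM with 32-134D. The 3 groups did not overlap, and the third treated library lay with the other two. The level at 1% O2 was 1.97-fold below that at 20% O2 (log2 fold change -0.98, SE 0.08), and MTTP rose 1.67-fold with 32-134D (log2 fold change 0.74, SE 0.08, edgeR FDR = 2.9e-06, 0.67 to 0.87 with each library left out in turn). Against vehicle at 20% O2 it differed by -0.23 (interval of 2 SE, -0.39 to -0.07, edgeR FDR = 0.0841). APOB, the apolipoprotein that MTTP loads with lipid, measured 3256, 4948 and 5256 CPM at 20% O2, 423.3, 377.5 and 415.8 CPM in vehicle at 1% O2 and 3884, 3968 and 2707 CPM with 32-134D. APOB fell by 3.47 on the log2 scale at 1% O2 (edgeR FDR = 7.6e-10) and rose by 3.12 with 32-134D (edgeR FDR = 5.98e-09).

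**Figure D3:**
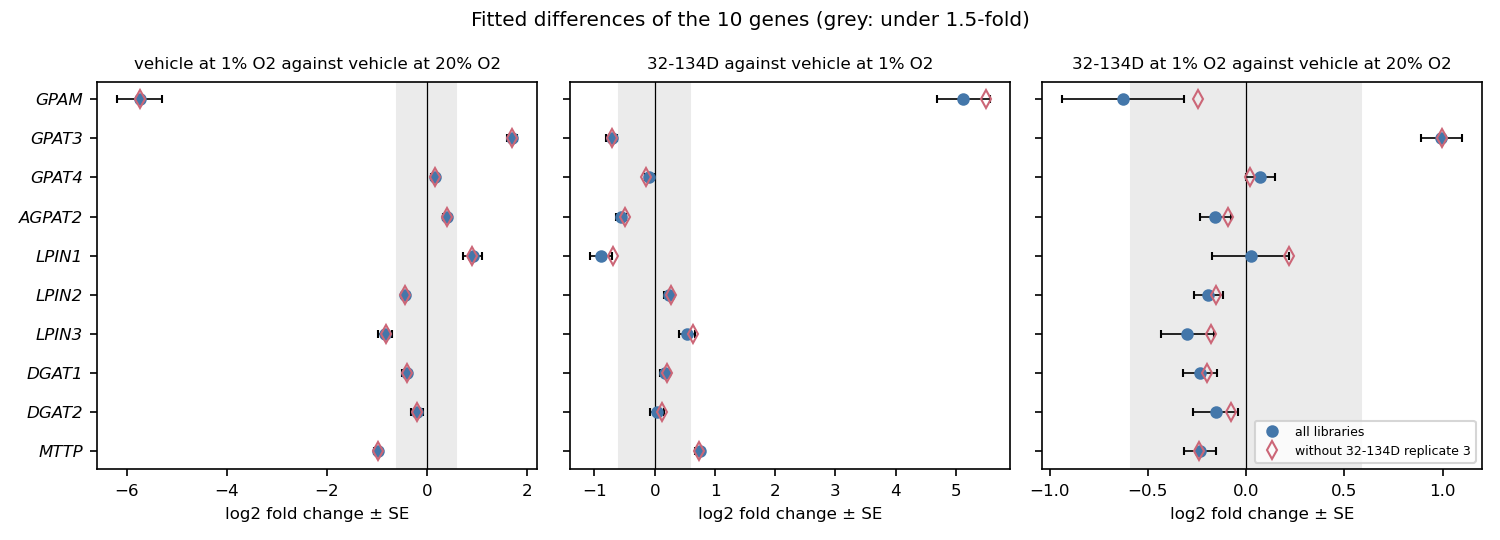
Log2 fold change of the 10 genes (filled circles, bars 1 SE) in the 3 comparisons, with open diamonds for the fit without the third 32-134D library and grey for changes under 1.5-fold; each panel has its own scale. With 32-134D against vehicle at 1% O2 only GPAM lies beyond 1 on the log2 scale, and its diamond (5.50) lies above its circle (5.12).

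Per kilobase, AGPAT2, GPAT4 and LPIN2 were the 3 highest of the 10 genes in every group, at 73.4, 20.9 and 17.2 CPM per kb at 20% O2. MTTP and DGAT1 followed at 11.6 and 10.6 CPM per kb. GPAM ranked 6 at 20% O2 with 4.27 CPM per kb, where its libraries overlapped those of LPIN3 at 4.10 CPM per kb. It was the lowest in vehicle at 1% O2 with 0.0768 CPM per kb, and ranked 8 with 32-134D at 2.75 CPM per kb, where it overlapped both of its neighbours, LPIN3 and DGAT2. GPAT3 ranked 8 of 10 at 20% O2 (2.85 CPM per kb), 4 in vehicle at 1% O2 (9.34 CPM per kb) and 6 with 32-134D (5.69 CPM per kb). LPIN1 was lowest in the other two groups, at 0.882 CPM per kb at 20% O2 and 0.879 with 32-134D. All other neighbours in these orders had libraries that did not overlap. The orders hold for merged exon lengths only and were not recomputed with longest-transcript lengths. For LPIN1 these are 11861 and 5690 bases, so ranks of genes with similar levels can depend on the length used.

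Around these enzymes stand 76 other genes of the same metabolism in 7 lists, 73 of which had enough counts to be tested (GPAT2, AQP9 and CES1 had not). The 7 lists were chosen with earlier results of these data known. Their counts and FDRs, those of APOB above included, are therefore descriptions and not independent tests. In vehicle at 1% against 20% O2, 16 of the 73 rose and 25 fell, where 19.5% and 20.3% of all genes did. With 32-134D against vehicle at 1% O2, 20 rose and 14 fell, where the shares of all genes were 16.2% and 13.7%. Against vehicle at 20% O2 3 were higher and 2 lower, where the shares were 3% and 0.516%. The counts below for each list stand against these same shares. Those 5 genes were the lipase regulators G0S2 and ABHD5 and the acyltransferase TMEM68, all higher, and the glycerol channel AQP7 and PCYT2, both lower, and the calls of TMEM68 and PCYT2 did not hold without the third treated library.

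Of the 7 tested genes of glycerol-3-phosphate supply, 6 fell at 1% O2 and none rose (median log2 fold change -1.32), where 20.3% of all genes fell. With 32-134D 4 of the 7 rose and none fell (median 0.88), where 16.2% of all genes rose. GPD1, which makes glycerol-3-phosphate from a glycolytic intermediate, measured 5.24, 4.71 and 4.11 CPM at 20% O2, 0.636, 0.660 and 0.968 CPM in vehicle at 1% O2 and 4.34, 3.602 and 2.15 CPM with 32-134D. It fell by 2.61 at 1% O2 (edgeR FDR = 1.74e-06) and rose by 2.17 with 32-134D (edgeR FDR = 1.33e-05), or by 2.40 without the third treated library. AQP7, a channel for glycerol, fell by 1.67 at 1% O2 (edgeR FDR = 1.03e-06) and rose by 0.88 with 32-134D (edgeR FDR = 0.000575). AQP3, another such channel, measured 107.4, 106.0 and 398.0 CPM with 32-134D against 33.6, 40.5 and 46.7 CPM in vehicle at 1% O2. Its rise of 2.34 on the log2 scale (edgeR FDR = 0.000143) was 1.41 without the third treated library. At 1% O2 AQP3 fell by 1.62 (edgeR FDR = 0.00218).

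Among 10 other acyltransferases, 1 rose and 4 fell at 1% O2, and 2 rose and none fell with 32-134D. AGPAT4, a relative of AGPAT2, fell by 1.78 at 1% O2 (edgeR FDR = 3.15e-07) and rose by 1.61 with 32-134D (edgeR FDR = 1.24e-06). LPGAT1, a lysophospholipid acyltransferase, fell by 0.80 (edgeR FDR = 1.56e-05) and rose by 0.63 (edgeR FDR = 0.000183), the latter being under the fold threshold, at 0.56, without the second treated library. TMEM68 was the one that rose at 1% O2, by 1.12 (edgeR FDR = 1.62e-05). With 32-134D it was at -0.47 and not called (edgeR FDR = 0.0115).

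Of 11 genes of fatty acid uptake and activation, 1 rose and 4 fell at 1% O2, and 3 rose and 1 fell with 32-134D. ACSL4, which activates polyunsaturated fatty acids, measured 380.4 to 391.6 CPM at 20% O2, 93.7 to 99.6 CPM in vehicle at 1% O2 and 353.8, 347.5 and 159.1 CPM with 32-134D, so the third treated library was again the lowest. It fell by 1.99 (edgeR FDR = 1.22e-06) and rose by 1.56 (edgeR FDR = 1.9e-05), or by 1.85 without the third treated library. The fatty acid receptor CD36 fell by 1.97 at 1% O2 (edgeR FDR = 3.61e-06). It rose by 1.45 with 32-134D (edgeR FDR = 7.7e-05), or by 1.68 without the third treated library. ACSL6 fell by 1.91 at 1% O2 (edgeR FDR = 0.000212) and rose by 2.12 with 32-134D (edgeR FDR = 5.06e-05) at a mean of only 1.29 CPM. ACSL1 went the other way, rising by 0.85 at 1% O2 (edgeR FDR = 2.47e-06) and falling by 0.64 with 32-134D (edgeR FDR = 4.08e-05). That decrease was under 1.5-fold in several settings. Among them were DESeq2 (-0.58), scaling by total counts (-0.45), a fit of only the 2 groups compared (-0.58) and the fit without 32-134D replicate 2 (-0.57).

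The list that leads from phosphatidic acid and diacylglycerol to phospholipids was split, with 4 up and 4 down of 10 at 1% O2, and 4 up and 3 down with 32-134D. PCYT2, of phosphatidylethanolamine synthesis, fell by 2.32 at 1% O2 (edgeR FDR = 3.15e-09). It rose by 1.68 with 32-134D (edgeR FDR = 1.69e-07), or by 1.86 without the third treated library. The lipid phosphatase PLPP2 fell by 1.68 (edgeR FDR = 8.47e-05) and rose by 1.56 (edgeR FDR = 0.000159). Its relative PLPP1 rose by 0.77 at 1% O2 (edgeR FDR = 0.00412) and fell by 0.84 with 32-134D (edgeR FDR = 0.0019). Without the third treated library the rise of PLPP2 was 1.21 and the fall of PLPP1 was -0.62. CDS1, which draws phosphatidic acid towards phosphatidylinositol, rose by 1.39 at 1% O2 (edgeR FDR = 2.52e-06) and fell by 1.15 with 32-134D (edgeR FDR = 1.09e-05). CEPT1, which turns diacylglycerol into phospholipid, rose by 0.99 at 1% O2 (edgeR FDR = 1.17e-07) and fell by 0.77 with 32-134D (edgeR FDR = 1.79e-06).

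In lipoprotein assembly, APOB and CIDEB, a droplet protein of lipoprotein lipidation, were the only 2 of 10 tested genes called in either comparison. CIDEB rose by 0.72 at 1% O2 (edgeR FDR = 0.000201), a rise that was 0.50 and under the fold threshold with scaling by total counts, and fell by 0.79 with 32-134D (edgeR FDR = 8.89e-05). The secretory genes of that list, SAR1B and SURF4 among them, were not called. SURF4 missed only the fold threshold, with log2 fold changes of 0.40 at 1% O2 (edgeR FDR = 0.00012) and -0.41 with 32-134D (edgeR FDR = 0.000133). Those of SAR1B were 0.12 (edgeR FDR = 0.228) and 0.03 (edgeR FDR = 0.788).

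Of 10 genes of triglyceride breakdown, 4 rose and 3 fell at 1% O2, and 3 rose and 4 fell with 32-134D. G0S2, an inhibitor of the lipase PNPLA2, measured 0.574, 0.157 and 0.335 CPM at 20% O2, 7.29, 8.82 and 10.1 CPM in vehicle at 1% O2 and 1.99, 2.53 and 3.61 CPM with 32-134D. It rose by 4.51 (edgeR FDR = 2.22e-08) and fell by 1.71 (edgeR FDR = 1.46e-05), with a fall of -1.95 without the third treated library. ABHD5, the activator of the same lipase, rose by 1.72 at 1% O2 (edgeR FDR = 3.25e-09) and fell by 0.91 with 32-134D (edgeR FDR = 1.54e-06). HILPDA, a further lipase inhibitor, rose by 1.45 at 1% O2 (edgeR FDR = 6.25e-08) and fell by 1.47 with 32-134D (edgeR FDR = 8.24e-08). PNPLA3 fell by 2.01 (edgeR FDR = 2.92e-07) and rose by 1.45 (edgeR FDR = 1.07e-05), or by 1.68 without the third treated library. The arylacetamide deacetylase AADAC fell by 3.01 (edgeR FDR = 0.000254) and rose by 2.39 (edgeR FDR = 0.00191), with 3.35, 2.53 and 0.412 CPM in the treated libraries and a rise of 2.83 without the third.

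Of 15 regulators, 5 rose and 3 fell at 1% O2, and 3 rose and 5 fell with 32-134D. SREBF1, a transcription factor of fatty acid and triglyceride synthesis, measured 176.6, 191.6 and 189.8 CPM at 20% O2, 65.2, 62.5 and 69.5 CPM in vehicle at 1% O2 and 147.3, 146.1 and 147.9 CPM with 32-134D. The treated libraries lay within 2 CPM of each other. SREBF1 fell by 1.50 at 1% O2 (edgeR FDR = 3.24e-10) and rose by 1.16 with 32-134D (edgeR FDR = 1.04e-08). MLXIPL, the carbohydrate-responsive factor, fell by 1.69 at 1% O2 (edgeR FDR = 5.7e-09) and rose by 1.14 with 32-134D (edgeR FDR = 5.91e-07). The bile acid receptor NR1H4 fell by 2.08 (edgeR FDR = 0.000574) and rose by 1.53 (edgeR FDR = 0.00577), with 12.8, 11.4 and 2.24 CPM in the treated libraries and a rise of 1.96 without the third. INSIG2, which holds back SREBP processing, rose by 1.61 (edgeR FDR = 1.37e-08) and fell by 1.49 (edgeR FDR = 6.32e-08). CNEP1R1, a subunit of the phosphatase that acts on lipins, rose by 1.22 at 1% O2 (edgeR FDR = 1.75e-06) and fell by 0.73 with 32-134D (edgeR FDR = 0.00016). PPARGC1A, the coactivator that LPIN1 binds, rose by 0.75 at 1% O2 (edgeR FDR = 0.00364). It fell by 0.89 with 32-134D (edgeR FDR = 0.000835), with -0.66 without the third treated library.

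**Figure D4:**
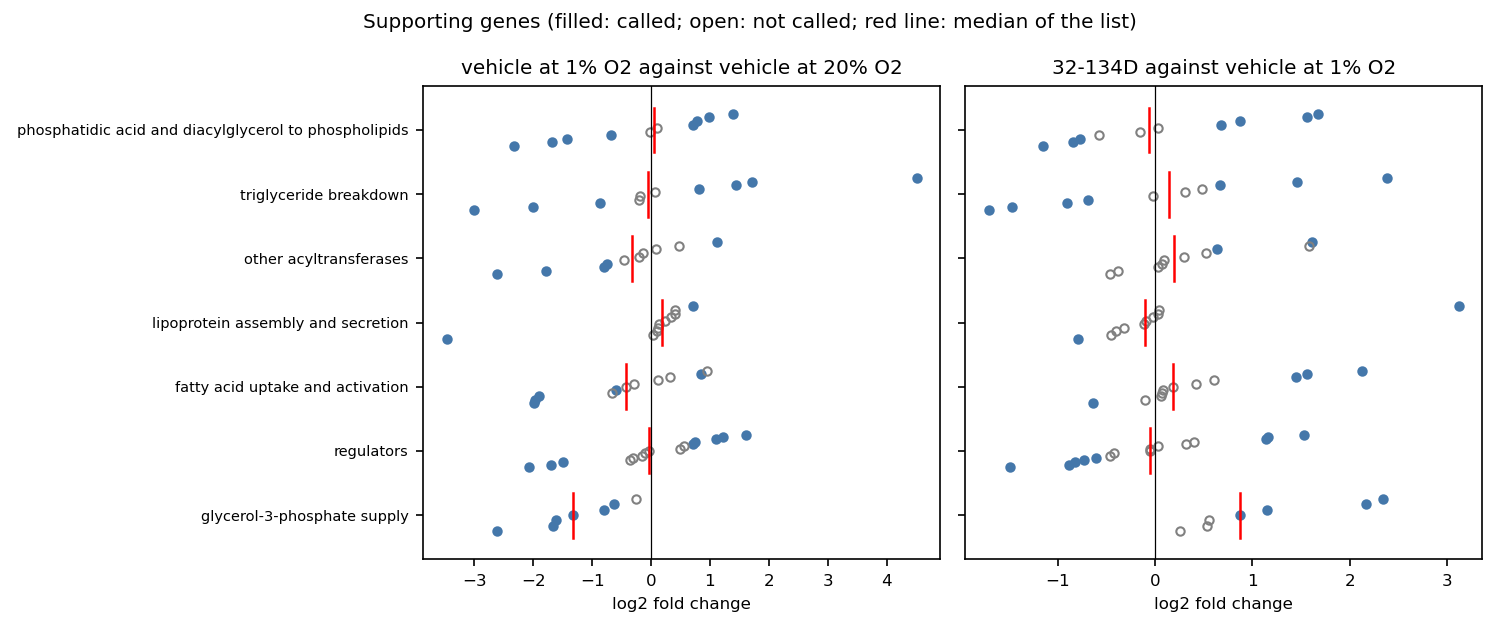
Log2 fold change of the 73 tested genes of the 7 lists, filled where called and open where not, with a red line at each list's median, for vehicle at 1% against 20% O2 (left) and 32-134D against vehicle at 1% O2 (right). The glycerol-3-phosphate supply list has its median at -1.32 on the left and 0.88 on the right, while the median of every other list lies within 0.5 of 0.

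Across the 9 libraries, the genes with log2 CPM most like GPAM's among 13910 genes with a mean of at least 1 CPM were CXCL1, USP13, PPM1H, CTSO and CRYZL2P, with Pearson's r of 0.9969 to 0.9954. For LPIN1 they were OCLN, CYTH3, HOXA6, AL135905.2 and MAP3K1, with r of 0.9853 to 0.9778. These are descriptions over libraries that share the same 3 groups, with the third treated library among the points.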

How the data were processed

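Total RNA was sequenced on an Illumina NovaSeq. Per the submitters' processing notes STAR and featureCounts were used with GRCh38, and the authors deposited raw gene counts, with no normalization. Strand settings are not given in the sources used here. The 10 genes and the 7 lists were chosen with earlier results of these data known. Genes with a summed count of at least 10 were kept (22672; 27399 of 60683 had no count). Counts were scaled by TMM and fitted with edgeR 4.0.16 (R 4.3.3), all 9 libraries and 3 groups in 1 quasi-likelihood fit, with Benjamini-Hochberg adjustment. The common biological coefficient of variation was 10.5%. The procedure was tested on simulated data. Coordinates and merged exon lengths came from GENCODE 29 (GRCh38), promoter windows from RefSeq. The study's methods name an Ensembl release for the mapping, so these lengths need not match the counted exons exactly. Shares within a family were compared by exact permutation tests (scipy 1.17.1). Named genes of the lists were up to 2 per list with the largest increase and up to 2 with the largest decrease, among those called with at least 1 CPM in the higher group, in the comparisons of vehicle at 1% against 20% O2 and of 32-134D against vehicle at 1% O2. The 5 genes named for the comparison with vehicle at 20% O2, and SAR1B and SURF4, fall outside this rule and were chosen after their values were seen. Low counts limit the precision of low genes such as GPAM in vehicle at 1% O2, at 36, 13 and 20 counts. The libraries of that group held 23550989 to 40549699 counts. Alternatives were DESeq2 1.42.0, other scalings, filters and fits, and each library left out.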

Additional observations from a re-analysis of the deposited data

How the results depend on the processing

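Of 216 recomputed counts of called genes and family balances, 205 stayed within the set limits and 11 moved. The limit was 1.5-fold for a count and the SD within groups for a balance. Supporting genes called higher at 1% O2 thus stayed within it at 11 in place of 16 with scaling by total counts. Part of the recomputed counts left out a library of the group not compared, where little change was possible. Of 1163 recomputed differences of named genes, 1131 kept direction and call, 11 lost the call, 12 gained one and 9 changed sign. Scaling by total counts set the median of all genes at -0.21 for vehicle at 1% against 20% O2 and at 0.17 for 32-134D against vehicle at 1% O2, and the share of higher among called genes went from 49.0% to 34.5% and from 54.2% to 72.0%. It gave 5 of the 10 genes lower at 1% O2 in place of 3, 1 lower with 32-134D in place of 2, and 9 supporting genes lower with 32-134D in place of 14. Under it GPAT4 changed sign in both comparisons (-0.0505 at 1% O2, 0.10 with 32-134D), and LPIN1 against vehicle at 20% O2 was -0.0027. With genes of at least 1 count in all, GPAM was called lower than in vehicle at 20% O2 (1 of 10 in place of 0) and 5 supporting genes were called higher there in place of 3. Supporting genes called lower in that comparison ranged from 1 to 6 with a library left out, against 2. They were 1 without vehicle replicate 3 at 20% O2 or without 32-134D replicate 3, 6 without 32-134D replicate 1 and 5 without 32-134D replicate 2. GPAT4 with 32-134D was 0.0043 where all libraries had to hold 10 or more counts of a gene, and ranged from -0.142 to 0.0031 with a library left out, the positive value without 32-134D replicate 1. LPIN1 against vehicle at 20% O2 ranged from -0.16 to 0.219 with a library left out, and was below 0 without vehicle replicate 1 at 20% O2 (-0.16), 32-134D replicate 1 (-0.08) or 32-134D replicate 2 (-0.09). All of these sign changes are within 2 SE of 0. The fall in the LPIN1 share of lipins with 32-134D, -5.34 percentage points, was -9.03 with longest-transcript lengths and -8.65 with raw counts. The causes were not tested beyond what each setting itself changes.

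Replicate numbers did not pair the samples: the deviations of same-numbered libraries correlated at -0.144 to 0.062. A fit with the number as a replicate block called 3474 genes higher and 3012 lower with 32-134D against vehicle at 1% O2 (3675 and 3100 without it), left the counts of the 10 genes at 2 and 2, and gave LPIN1 against vehicle at 20% O2 a value of -0.000165.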
